A study of Homo sapiens with 4 samples.

Results

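The peaks described here are SPIB ChIP-seq peaks that were called in suspended cells, overlapped no peak of attached cells, and lay deep inside long genes. They were chosen from the suspended peak list by 4 properties: a length under 750 bp, no overlap with any attached peak, a summit over 1 kb from both ends of every annotated gene, and a summit inside at least 1 gene that spans 200 kb or more. The rule found 989 such peaks, called long-gene peaks below, among the 9024 peaks of the suspended list (10.96%, 95% exact binomial interval 10.3 to 11.6). The attached list held 462 peaks. Peak length, position and absence from the attached list were therefore set by the choice, and are given as description only.

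The cells were H1703, an established human lung squamous carcinoma line, and overexpressed the transcription factor SPIB in all 4 libraries. Chromatin was precipitated with the anti-FLAG antibody M2 in 1 ChIP library of attached cells and 1 ChIP library of suspended cells, and each condition had 1 input library made without antibody. The labels name 24 h of suspension in the treatment text of every library, attached ones included, so the groups were taken from the condition label. With 1 library per group there was no replicate check, no p-value between conditions is given, and all intervals cover counting error only. Depth after the authors' filtering was 20766909 tags in the suspended ChIP library and 21437074 in its input, and 21108364 and 15878452 in the attached pair.

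SPIB is an ETS-family factor, best known from B cells and plasmacytoid dendritic cells, and ETS factors recognise DNA with a GGAA core. Very long genes carry most of their length in introns, and many of them encode synaptic adhesion proteins, ion channels, axon guidance receptors and scaffold proteins of neurons. Their introns hold enhancers and internal transcript starts, but also long stretches that lie far from any known start. Anoikis is the death of epithelial cells that have lost contact with their matrix, and the study addressed how SPIB-expressing lung cancer cells resist it.

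Few of these peaks can be shown as sequence, because sequence was at hand only for the 300 bases around annotated transcript starts. A tabled start was at hand for 793 long-gene peaks, in the long host or in a shorter gene that also held the summit. Of these, 24 (3.03%, 1.95 to 4.47) had their summit within 1 kb of a start that lies inside the long gene. The 300-base window itself was overlapped by 10. The 4 sequences below are the parts of such peaks that lie upstream of the start and inside the window. They are from RefSeq on GRCh38 (hg38), written 5′ to 3′ along the gene. The PRIM2 peak reaches further upstream than the window and is not shown there. GGAA and its reverse complement TTCC are in capitals. RPH3A holds the long-gene peak of highest authors' score, TBC1D19 the peak whose summit is closest to a start, PRIM2 the peak with most tags among those at a start, and KCTD1 one of the few with the longer word GGAAGT.
RPH3A, chr12:112791419-112791537, plus strand: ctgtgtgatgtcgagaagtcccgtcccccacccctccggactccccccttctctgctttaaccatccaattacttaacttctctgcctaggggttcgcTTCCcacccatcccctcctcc
TBC1D19, chr4:26583939-26584083, plus strand: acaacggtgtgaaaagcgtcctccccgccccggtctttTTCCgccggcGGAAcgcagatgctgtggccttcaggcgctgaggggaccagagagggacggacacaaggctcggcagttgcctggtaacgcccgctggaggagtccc
PRIM2, chr6:57317380-57317629, plus strand: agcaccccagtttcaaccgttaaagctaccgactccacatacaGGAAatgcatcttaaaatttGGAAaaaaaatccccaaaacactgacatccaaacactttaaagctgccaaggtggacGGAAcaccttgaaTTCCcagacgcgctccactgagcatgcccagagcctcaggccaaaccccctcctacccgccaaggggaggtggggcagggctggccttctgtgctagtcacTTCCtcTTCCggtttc
KCTD1, chr18:26549820-26550001, minus strand: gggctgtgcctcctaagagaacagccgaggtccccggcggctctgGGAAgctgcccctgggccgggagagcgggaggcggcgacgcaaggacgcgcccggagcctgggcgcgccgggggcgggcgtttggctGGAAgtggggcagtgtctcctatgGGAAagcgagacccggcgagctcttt

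GGAA on either strand was found in all 16 promoter windows that overlapped a long-gene peak, but also in 95.4% of all 34943 windows of that length, so its presence is the background. The longer ETS word GGAAGT, searched on both strands and containing GGAA, was in 2 of the 16 windows (12.5%, 1.55 to 38.3). It was in 22.8% of all windows and in 34.95% of the 2120 windows that overlapped any suspended peak. In the printed sequences it occurs 1 time in PRIM2, as its reverse complement, and 1 time in KCTD1, and in neither RPH3A nor TBC1D19. A match describes letters in the window only.

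The RPH3A peak lies over a start inside the gene of rabphilin 3A, a synaptic vesicle protein, and its summit was 14 bp from that start. It held 34 tags (95% exact Poisson interval 23.5 to 47.5), with an authors' fold of 14.3 and a score of 180.74. The 14 bases that begin at the summit, just downstream of the start, read as the word CTGTCCNTGGTGCT when the 7th base is left free. This is the centre of the RE1 element that the repressor REST binds in neuronal genes. The word was chosen after the sequence had been read, and is shown in capitals.
RPH3A site, chr12:112791552-112791565 with 3 bases on each side, plus strand: gcgCTGTCCGTGGTGCTgac

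On either strand the word was present in 5 of the 34943 windows (0.0143%), at 4 sites. Besides RPH3A, a window of DRD3, the dopamine receptor D3 gene, held it 3 bp from the summit of a suspended peak with 9 tags and a fold of 12.3. The windows of UCN (urocortin) and FAM163B held it without a suspended peak. None of these windows overlapped an attached peak. Binding of REST was not measured.

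Fold, score and false discovery rate (FDR) of a peak are the authors' values from MACS, used here only to describe and rank peaks within the suspended list. Fold sets the ChIP tags against a local background, and the score is minus 10 times log10 of the peak's p-value. The typical long-gene peak was small: the median held 10 tags (middle 50%: 8 to 14, full range 8 to 70) over 195 bp (172 to 248, full range 94 to 738). Of the 989 peaks, 256 (25.9%, 23.2 to 28.7) held 8 tags, the lowest number in the list, and 541 (54.7%, 51.5 to 57.8) held 10 or fewer. At the other end, 115 (11.6%, 9.70 to 13.8) held 20 or more. The median fold was 10.9 (8.94 to 12.7, full range 3.58 to 22.8) and the median FDR 4.28%.

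The same values were read for the other suspended-only peaks of the same length limit, sorted by position. Peaks inside shorter genes numbered 2714, peaks between genes 1780, and peaks within 1 kb of a gene end 2848. A content of 10 tags or fewer was found in 36.7% (34.8 to 38.5) of peaks inside shorter genes, 48.3% (45.9 to 50.6) of those between genes and 10.9% (9.76 to 12.1) of those at gene ends. Long-gene peaks thus had the highest share of tag-poor peaks of the 4 classes, with intervals that do not overlap. Their median fold was above the 9.66 of shorter genes, the 10.2 between genes and the 7.68 at gene ends, while their median score of 56.4 was near the 57.2 of shorter genes and the 56.3 between genes. Median tags ran in the opposite order: 10 in long genes, 11 between genes, 12 in shorter genes and 20 at gene ends. All peaks passed the same p cutoff, so the higher fold is not a trait separate from the low tags. The share with an FDR of at most 5% was 72.3% (69.4 to 75.1) in long genes and 72.5% in shorter genes.

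**Figure D1:**
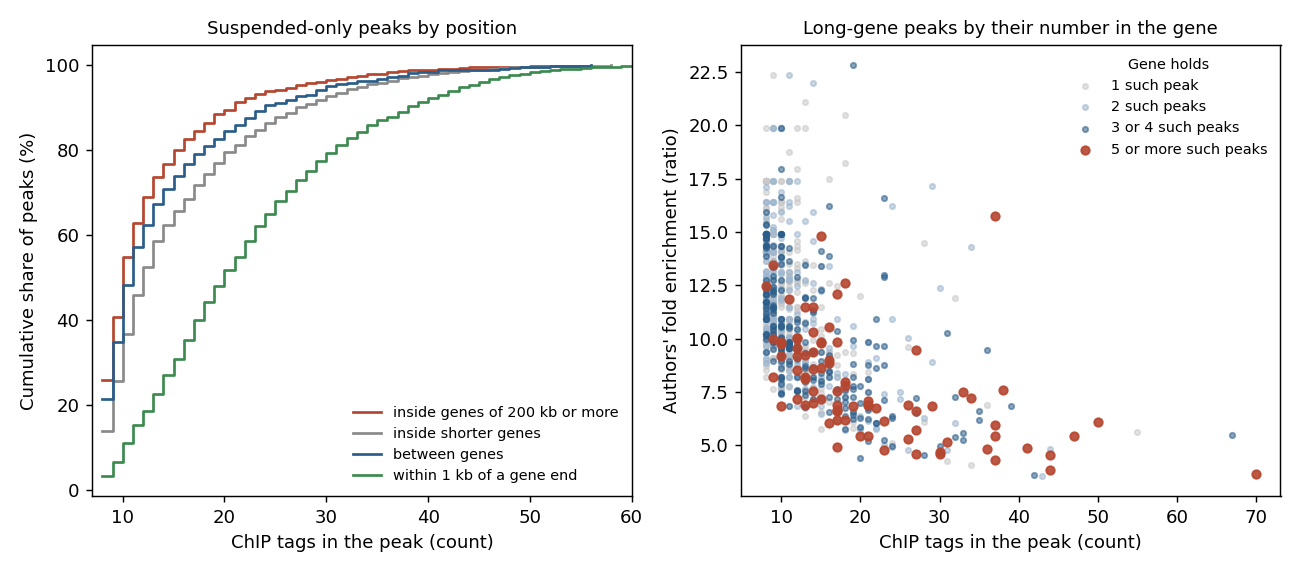
Left: cumulative share of suspended-only peaks (%) against their ChIP tags (count, axis drawn to 60), by position; the curve for genes of 200 kb or more lies above the others up to 20 tags, and 54.7% of those peaks held 10 tags or fewer. Right: each point is 1 long-gene peak, with its tags and the authors' fold (ratio), coloured by how many such peaks its gene holds; peaks of genes with 5 or more reach high tag counts at low fold.

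Per unit of length, long genes held fewer suspended-only peaks than shorter genes. Interior length is the union of gene spans without 1 kb at every gene end. Long genes had 989 peaks in 685 Mb of interior, or 1.44 per Mb (1.35 to 1.54), and shorter genes 3.13 per Mb (3.01 to 3.25), a ratio of 0.461 (0.428 to 0.496). Between genes the density was 1.32 per Mb (1.26 to 1.39), with assembly gaps counted in the length, and the ratio of long genes to this was 1.09 (1.01 to 1.18). The difference from shorter genes was larger among tag-rich peaks: the ratio was 0.688 (0.619 to 0.765) for peaks of 10 tags or fewer and 0.330 (0.297 to 0.366) for peaks of more. Relative to the space between genes the same ratios were 1.24 (1.11 to 1.38) and 0.955 (0.851 to 1.07). Long-gene density was below that of shorter genes on 22 of the 23 chromosomes that held any such peak, the exception being chromosome 21 with 7 long-gene peaks (1.04 per Mb, 0.419 to 2.15, against 0.955).

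Density fell in steps with gene span, also within the long genes. It was 1.88 per Mb (1.69 to 2.09) in genes of 200 to 300 kb, 1.60 (1.43 to 1.77) from 300 to 500 kb and 1.21 (1.06 to 1.38) from 500 to 1000 kb. Genes over 1000 kb held 71 peaks, 0.721 per Mb (0.563 to 0.910), below the space between genes. The lowest interval bound of the 100 to 200 kb class, 2.31 per Mb, already lay above the 200 to 300 kb class, and genes under 10 kb had 5.64 per Mb. Tag-poor peaks made up a growing share along this order, 52.6% at 200 to 300 kb and 62.0% above 1000 kb, against 20% in genes under 10 kb.

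**Figure D2:**
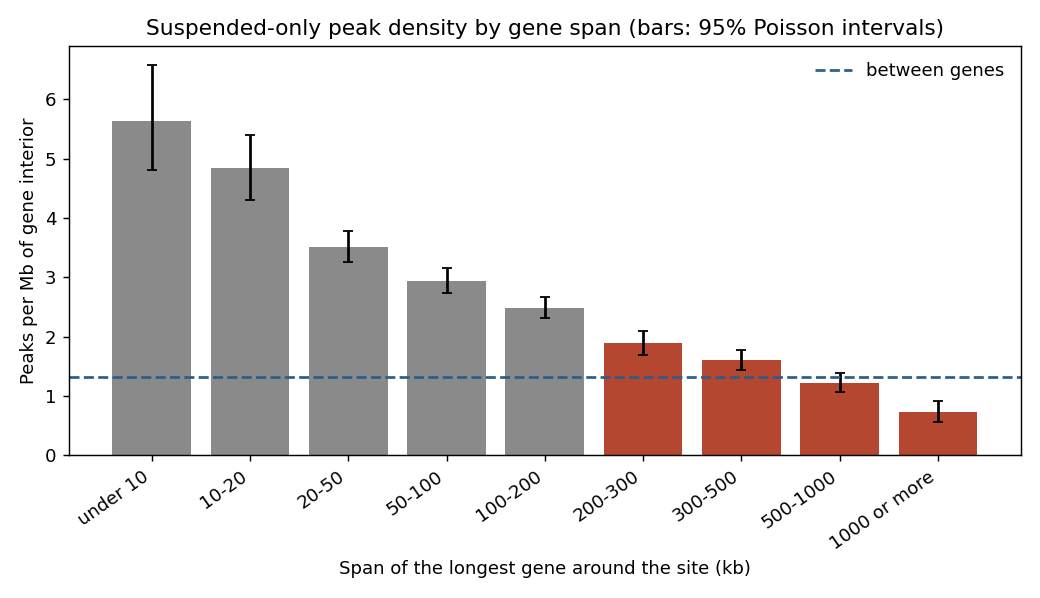
Suspended-only peaks per Mb of gene interior (bars, with 95% Poisson intervals) against the span of the longest gene around the site (kb); red bars are genes of 200 kb or more and the dashed line is the density between genes. The bars fall from 5.64 to 0.721 per Mb.

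Counted by gene, 636 of the 1767 long genes held at least 1 long-gene peak, which is 36% (33.8 to 38.3). Among protein-coding genes of 200 kb or more the share was 39.1% (547 of 1399, 36.5 to 41.7). Of protein-coding genes under 200 kb, 10.2% held a suspended-only peak in the interior, with peaks that also lay in a long gene left out. Among long noncoding RNA (lncRNA) genes of 200 kb or more the share was 23.9% (84 of 352, 19.5 to 28.7). The share grew with span, from 30.4% (27.2 to 33.6) at 200 to 300 kb to 46.2% (40.4 to 52.1) at 500 kb to 1 Mb, while peaks per Mb fell. Most hosts held 1 peak (412 genes), 139 held 2, 85 held 3 or more, and 13 held 5 or more. By peak, 883 (89.3%) had a protein-coding host, 101 (10.2%) had lncRNA hosts only, and 5 (0.506%) had a host of neither type. Of all long-gene peaks, 84 (8.49%) also lay in a shorter gene nested in the long one.

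Host genes with several peaks differed from those with 1. The 406 peaks that were alone in their gene held a median of 9 tags at a fold of 11.99, and 69.2% of them had 10 tags or fewer. In the 13 genes with 5 or more, the 80 peaks held a median of 17 tags at a fold of 7.21, and 10% had 10 or fewer. The peaks were also longer in those genes, with a median of 271 bp against 184 bp for peaks alone in their gene. The authors' fold is a ratio to the local background, so that background enters these folds, but its own value was not measured here. Whether those stretches are present in extra copies in H1703 cells was not tested.

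The 8 genes with most long-gene peaks were PDGFC, ZMIZ1, CDH23, TRIO, DNAH5, KCNMA1, CDH12 and MTA3. PDGFC, a platelet-derived growth factor ligand, had the most: 9 peaks in a span of 211 kb on chromosome 4 (chr4:156760454-156971799), 42.6 per Mb (19.5 to 80.8). Its peaks held 19, 31, 12, 18, 16, 16, 50, 23 and 27 tags from the low-coordinate end, at folds of 5.18 to 10.1. They lay over 135 kb of the gene with no pair closer than 5456 bp, and a further suspended peak sat within 1 kb of an end of the gene. ZMIZ1, a coactivator with a SUMO-ligase-type zinc finger, had 8 peaks in 248 kb on chromosome 10 (chr10:79068966-79316519), with 16 to 38 tags at folds of 4.78 to 9.49. Among these were the pairs at chr10:79129322-79129779 with chr10:79130006-79130423 and chr10:79150208-79150814 with chr10:79150852-79151207, whose summits were 643 and 782 bp apart.

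TRIO and DNAH5 are near neighbours on the short arm of chromosome 5. TRIO, a guanine nucleotide exchange factor, had 7 peaks over 367 kb (chr5:14143342-14510204) with 30 to 70 tags, the tag-richest set of the 8 genes, at low folds of 3.64 to 7.49. Its first peak, 1730 bp inside the start, held 70 tags (54.6 to 88.4), the most of any long-gene peak. DNAH5, a dynein heavy chain of motile cilia, had 6 peaks with 27 to 37 tags; 5 had folds of 4.33 to 7.24, and the peak at chr5:13866857-13867185 stood apart with 37 tags, a fold of 15.7 and a score of 138.29. Over the gene itself and 500 kb on each side, suspended peaks of any kind numbered 24.9 per Mb for TRIO and 21.9 for DNAH5. These stretches overlap and share peaks. For PDGFC the value was 10.7, from 13 peaks that include its 9 long-gene peaks.

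CDH23, a cadherin of the inner-ear hair bundle, had 8 peaks over 419 kb on chromosome 10 with 10 to 26 tags, and an attached peak inside the gene. One of the 8 lay 5672 bp from the attached peak. KCNMA1, a calcium-activated potassium channel, had 6 peaks (14 to 47 tags) on the same chromosome. CDH12, a neuronal cadherin of 1103 kb, had 6 peaks with 8 to 17 tags at folds of 6.21 to 12.5, or 5.44 per Mb, spread over 845 kb, and it too held an attached peak. MTA3, a subunit of the NuRD chromatin complex, had 5 (12 to 21 tags). RAP1GAP2, which inactivates the GTPase RAP1, had 5 with 10 to 17 tags. DLGAP1, CDH18 and PTK2 also had 5 each.

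**Figure D3:**
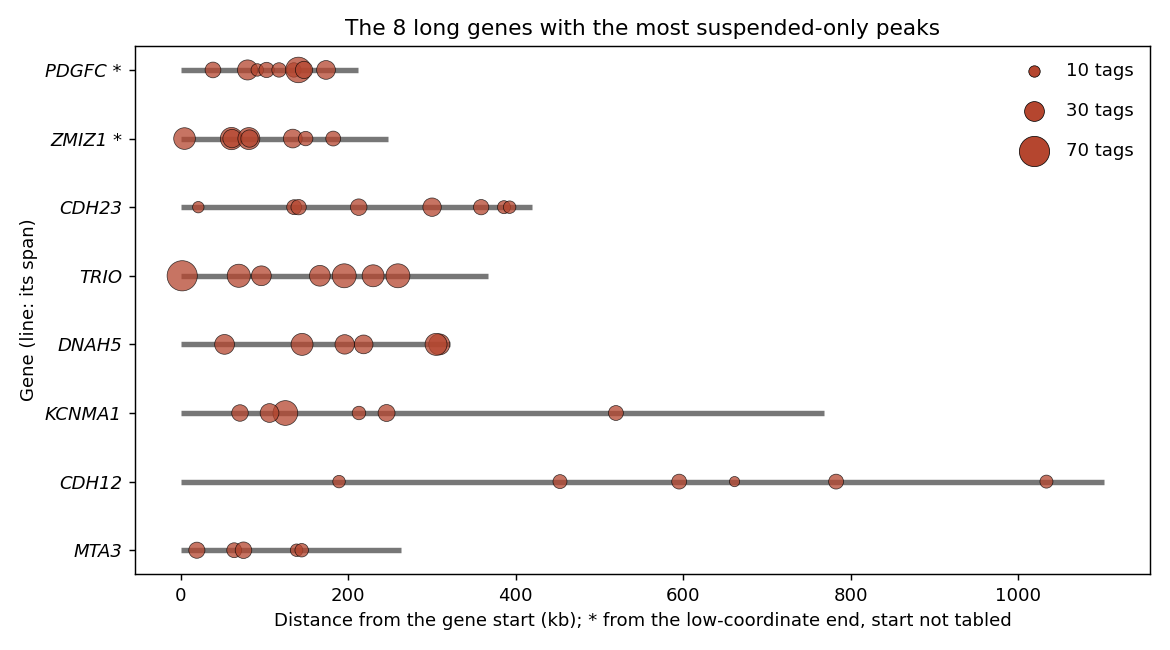
Positions of the long-gene peaks (circles, area by ChIP tags) in the 8 genes that hold most, with distance in kb from the gene start or, for genes marked with an asterisk, from the low-coordinate end. PDGFC, with 9 peaks in 211 kb, is the most crowded, and the TRIO circles are the largest, with 30 to 70 tags.

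Crowding of peaks along the genome also showed in the long genes. Of 10-Mb windows, 70 to 80 Mb of chromosome 17 had 12 long-gene peaks (7.94 per Mb, 4.10 to 13.9), 70 to 80 Mb of chromosome 10, which holds CDH23, ZMIZ1 and KCNMA1, had 27 (7.80 per Mb, 5.14 to 11.4), and 10 to 20 Mb of chromosome 5 had 23 (7.08 per Mb, 4.49 to 10.6). The first 50 Mb of chromosome 5 held 55 long-gene peaks, 6.05 per Mb (4.56 to 7.88), with a median of 20 tags and a fold of 6.58. The rest of that chromosome held 60, 1.76 per Mb (1.34 to 2.26), with 10 tags and a fold of 11.2. Chromosome 5 as a whole carried 11.6% of long-gene peaks on 6.31% of the long-gene interior. By chromosome, density was highest on 17 (3.38 per Mb, 2.46 to 4.52), 19 (3.03, 1.31 to 5.97) and 5 (2.66, 2.20 to 3.19), whose intervals overlap. Chromosome X had 6 long-gene peaks (0.209 per Mb, 0.0766 to 0.454) and Y had none in 1.47 Mb. Differences in copy number between chromosomes were not tested.

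Apart from such genes, long-gene peaks were scattered. The median distance to the nearest other long-gene peak was 210412 bp, and 59 (5.97%, 4.57 to 7.63) had another within 10 kb. Any other suspended peak was within 10 kb of 75 (7.58%, 6.01 to 9.41), against 21.6% (20.1 to 23.2) of the peaks inside shorter genes and 14.04% (12.5 to 15.7) of those between genes. The 31 most crowded of 3101 windows of 1 Mb held 782 suspended peaks (8.71%) and 16 long-gene peaks (1.62%). Leaving these windows out lowered long-gene density from 1.44 to 1.42 per Mb of interior. Long-gene peaks were thus denser inside these windows than outside. The windows were chosen by suspended peak counts that include the long-gene peaks, so a higher density there was favoured by the choice. Neither this nor the low share shows whether long-gene peaks avoid or favour crowded stretches. Pairs within 2 kb numbered 9. The closest was in ASIC2, an acid-sensing ion channel gene, at 226 bp with 10 and 15 tags. Others were in AMPH (364 bp), RBFOX3 (366 bp), LPP (527 bp), SAMD4A (997 bp), GSE1 (1143 bp) and CREB5 (1255 bp), besides the 2 of ZMIZ1. Whether such a pair is 1 enriched stretch was not tested.

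The attached list was short, and overlap with it was excluded by the rule. An attached peak lay within 1 kb of 1 long-gene peak and within 10 kb of 3 (0.303%, 0.0626 to 0.884). Within 10 kb the shares were 1.07% (0.717 to 1.53) in shorter genes, 0.730% (0.389 to 1.25) between genes and 1.26% (0.887 to 1.75) at gene ends. The nearest, at 458 bp, was beside a peak with 14 tags in HHAT, which encodes the enzyme that attaches palmitate to Hedgehog proteins. The other was 5349 bp from a peak with 11 tags in CPNE4, a copine, in addition to the CDH23 peak named above.

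Position within the gene was read for 725 pairs of a peak and a protein-coding host whose start was tabled. From 1 to 5 kb after the start there were 18 pairs, 4.09 per Mb (2.43 to 6.47), and from 5 to 10 kb there were 6, 1.06 per Mb (0.391 to 2.32). Pooled over 1 to 10 kb the density was 2.39 per Mb (1.53 to 3.56), against 1.502 (1.39 to 1.62) at 20 kb or more from the start, a ratio of 1.59 (1.01 to 2.39). At the other end the density over 1 to 10 kb was 2.18 per Mb (1.37 to 3.31), and the ratio of start to other end was 1.10 (0.588 to 2.05), so the ends did not differ beyond counting error. Beyond 500 kb from the start the density was 0.885 per Mb (0.697 to 1.11). Of the 725 pairs, 375 (51.7%, 48.0 to 55.4) lay nearer to the start than to the other end. Over all 989 peaks, 64 (6.47%, 5.02 to 8.19) were within 10 kb of an end of their host, which makes up 4.45% of the interior. Among peaks over 5 kb from every gene end the excess was not seen (2.67%, 1.70 to 3.99, on 2.46% of the interior). The peak farthest from any gene end, by 345790 bp, had 8 tags and lay in KHDRBS2, an RNA-binding protein gene.

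**Figure D4:**
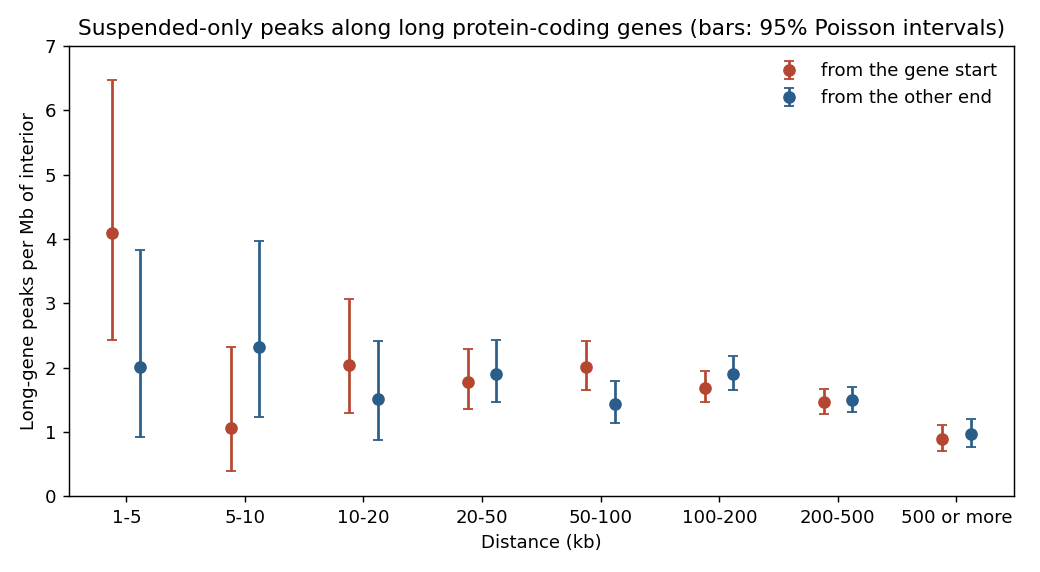
Long-gene peaks per Mb of interior (points, with 95% Poisson intervals) against distance in kb from the start (red) or the other end (blue) of long protein-coding genes. The point 1 to 5 kb from the start, 4.09 per Mb, is the highest, its interval overlaps that of the other end, and both series are lowest at 500 kb or more.

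The 24 peaks within 1 kb of an internal transcript start were larger than the other 769 with tabled starts: a median of 18.5 tags (middle 50%: 13.8 to 26) against 10 (8 to 13), and 298 bp against 192 bp. They made up 3.03% of peaks on 0.437% of the interior of genes with tabled starts: the density within 1 kb of a start was 10.1 per Mb against 1.42 elsewhere, a ratio of 7.11 (4.53 to 10.7). In shorter genes such peaks were 227 of 2104 (10.8%, 9.49 to 12.2) on 1.16% of the interior, a ratio of 10.3 (8.91 to 11.8), whose interval overlaps that of long genes. PRIM2, the large DNA primase subunit, had the tag-richest, with 44 tags at a fold of 4.84. CAST, the calpain inhibitor calpastatin, had 42 at 3.59, and RPH3A 34 at 14.3. TBC1D19, a predicted RAB GTPase activator, had 20 tags at a fold of 11.99 with the summit 1 bp from the start. HIP1, a clathrin adaptor, had 16 tags (9.15 to 26.0) at 17.5, the highest fold of the 24. ADK, adenosine kinase, had 26 tags at 4.78 and KCTD1, a transcriptional repressor with a BTB domain, had 22 at 5.78. RAPGEF2 had the fewest, with 8. Those named in this paragraph outside the rule for named genes were picked after their values had been seen.

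Peaks of highest fold were mostly small. CAMTA1, a calmodulin-binding transcription activator, held the highest, a fold of 22.8 on 19 tags (11.4 to 29.7) at chr1:7075400-7075662, 61256 bp from the nearest gene end. NRXN3, a presynaptic neurexin, followed with 22.4 on 11 tags, as did LOC102723945, whose peak of 9 tags also lay in RAB11FIP3, a shorter gene. LOC102723945, the only long host of that peak, is annotated as a pseudogene of 279 kb, and the summit was 1268 bp from a gene end. OPCML, a neuronal adhesion protein of the IgLON family, had 21.98 on 14 tags. RIMBP2, a presynaptic scaffold, had 21.1 on 13, and AGBL4, a carboxypeptidase that trims tubulin glutamates, 20.5 on 18. A further 8 peaks were tied at 19.9 with 8 to 13 tags, among them those in DLG2, NCKAP5, LOC105370504, SEMA3A, TENM3, NBEA and STAU2. Ties were common: 57 peaks had the same fold of 12.4 with 8 to 10 tags, and 48 had 14.9, so the order among small peaks is to be read with care.

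Ranked by score, which weighs tags as well, the leaders were RPH3A at 180.74, then KALRN at 141.34 and GRIK3 at 138.99, chosen here after their values were seen. KALRN, a nucleotide exchange factor of synapses related to TRIO, had 24 tags (15.4 to 35.7) at a fold of 16.2 at chr3:124217645-124217998. GRIK3, a kainate receptor subunit, had 29 tags (19.4 to 41.6) at 17.2 at chr1:36924246-36924619. The DNAH5 peak came next. By tags alone, after TRIO, the leaders were C1QTNF3 with 67 (51.9 to 85.1) and SH3PXD2A with 55 (41.4 to 71.6), at folds of 5.49 and 5.63.

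Long genes with an inner peak also more often carried a suspended peak at an own end, a class that the choice of long-gene peaks left out. Of all 1767 long genes 8.89% had a suspended summit within 1 kb of an own end: 79 of the 636 with a long-gene peak (12.4%, 9.96 to 15.2), 18 of the 85 with 3 or more (21.2%, 13.1 to 31.4), and 78 of the 1131 without (6.90%, 5.49 to 8.53). An attached summit inside the gene was found in 3.28% of all long genes, in 33 of the 636 with a long-gene peak (5.19%, 3.60 to 7.21) and 25 of the 1131 without (2.21%, 1.44 to 3.25). The genes with a long-gene peak were longer (median span 339 kb against 297 kb), which gives an attached peak more room, and the part of span in this difference was not tested. Gene type differed too: 39.1% of protein-coding long genes held a long-gene peak, against 23.9% of lncRNA ones. The part of gene type was not tested for attached peaks or for peaks at an own end.

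Hosts were then read by function in 11 lists of genes. All their long genes are protein-coding. Shares of list genes with a long-gene peak are therefore to be read against the 39.1% of protein-coding long genes, and densities against the 1.5008 peaks per Mb of span in those genes, whose median span was 319 kb. The intervals are wide and lists differ in span, so these are descriptions.

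Neuronal adhesion and guidance genes, the textbook class of very long genes, had shares whose intervals include the background. By density the adhesion list lay below its background and the guidance list above. Of 47 long genes for synaptic and neural adhesion, 19 held a peak (40.4%, 26.4 to 55.7), but at 0.873 per Mb and a median span of 836 kb. Besides NRXN3 and OPCML they included TENM3, a teneurin (19.9 on 10 tags), and CSMD3, a large complement-domain membrane protein (14.9 on 8). Axon guidance genes held peaks in 11 of 22 (50%, 28.2 to 71.8), 1.86 per Mb. SEMA3A, a secreted semaphorin, had a fold of 19.9 on 10 tags. UNC5D, a netrin receptor, had 4 peaks, the strongest with 23 tags (14.6 to 34.5) at 16.6, and DCC, the other main netrin receptor type, had 3, the strongest at 14.9 on 10 tags. PLXNA2, a semaphorin co-receptor, had 1 with 10 tags.

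Cadherins and catenins held peaks in 8 of 17 long genes (47.1%, 22.98 to 72.2), 2.06 per Mb. CDH23, CDH12 and CDH18 supplied 19 of the 30 peaks, and CDH12 and CDH18 lie in the crowded first 50 Mb of chromosome 5. PCDH15, a protocadherin of the hair bundle, and CTNNA3, an alpha-catenin, each reached a fold of 14.9 on 8 and 10 tags, and CDH4, retinal cadherin, 14.04 on 8. Ion channels and neurotransmitter receptors held peaks in 23 of 56 (41.1%, 28.1 to 55.02), 1.51 per Mb, and 9 of the 56 had a suspended peak at an own end. The glutamate receptor subunits GRIA4 (17.4 on 9 tags), GRIK3 and GRIK2 (16.2 on 16 tags, 9.15 to 26.0) led, followed by the potassium channel KCND2 (14.9 on 8).

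Protein kinases held peaks in 19 of 40 long genes (47.5%, 31.5 to 63.9), 2.32 per Mb, a list that counts CDKAL1, a tRNA-modifying enzyme and not a kinase. TRIO, also counted here, supplied 7 of the 41 peaks and lies in the crowded first 50 Mb of chromosome 5. PTK2 supplied 5. CAMK4, a calmodulin-dependent kinase, had a fold of 16.4 on 8 tags, PRKCB, a protein kinase C, 15.5 on 11, and NTRK2, the BDNF receptor, 14.9 on 8, after KALRN. Phosphodiesterases and receptor phosphatases had 6 of 18 (33.3%, 13.3 to 59.0), 0.610 per Mb. Their strongest were PTPRT (14.9 on 9 tags), PTPRM (13.03 on 10), PDE8B (10.8 on 9) and PTPRN2 (10.2 on 8). Transcription factors and chromatin regulators had 32 of 66 (48.5%, 36.0 to 61.1) at 1.42 per Mb. After CAMTA1 came SMYD3, a lysine methyltransferase (17.4 on 8), TCF12, a basic helix-loop-helix factor (16.4 on 11), and HDAC9, a histone deacetylase (14.6 on 12).

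Cytoskeleton and small GTPase regulators had the same count, 32 of 66 (48.5%, 36.0 to 61.1), at 1.54 per Mb. DLG2, a scaffold of the postsynaptic density, had 19.9 on 12 tags, CLASP1, which stabilises microtubule ends, 17.4 on 8, PALLD, an actin cross-linker, 16.9 on 8, and MTUS2, a microtubule-associated protein, 16.4 on 10. Matrix, integrin and proteoglycan genes, which serve attachment, had the lowest share, 13 of 44 (29.5%, 16.8 to 45.2) at 0.607 per Mb, with 1 peak in each. EYS, a secreted retinal matrix protein, reached 12.4 on 8 tags, and the collagen genes COL19A1 (11.5 on 8), COL14A1 (11.5 on 10) and COL4A2 (11.1 on 9) followed. Genes at common fragile sites, which are very long and late replicating, had 11 of 32 (34.4%, 18.6 to 53.2) at 0.524 per Mb and a median span of 1143 kb. DLG2 and NBEA led, then NAALADL2 (15.4 on 8 tags) and CTNNA3.

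The list on autophagy and anoikis, the processes in the study's title, had the highest share, 13 of 21 long genes (61.9%, 38.4 to 81.9), at 2.73 per Mb and a median span of 344 kb. The interval includes the 39.1% of protein-coding long genes, the list had the highest share of 11, and it shares genes with other lists (NBEA is also at a fragile site). Like the other lists it was chosen with earlier results of these data known. It is broad, and its share counts genes of membrane traffic and a pseudokinase, named next. By fold it was led by NBEA (19.9 on 8 tags) and LRBA (14.9 on 8), related BEACH-domain proteins of membrane traffic, and ULK4, a pseudokinase of the ULK family (13.2 on 8). Others were PTK2 (focal adhesion kinase) with 5 peaks, ATG10, an enzyme of the ATG12 conjugation system, with 4, PRKAG2, an AMPK subunit, with 4, VPS13B with 2, and TBC1D5, DAPK1, SNX29, LYST and RPTOR with 1 each. The peak of highest fold in each of these named genes held 8 to 13 tags. A suspended peak at an own end was present in 6 of the 21 (28.6%). The share was 8.89% over all long genes, lncRNA genes included. It was not computed for protein-coding long genes alone, so a like background is missing.

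**Figure D5:**
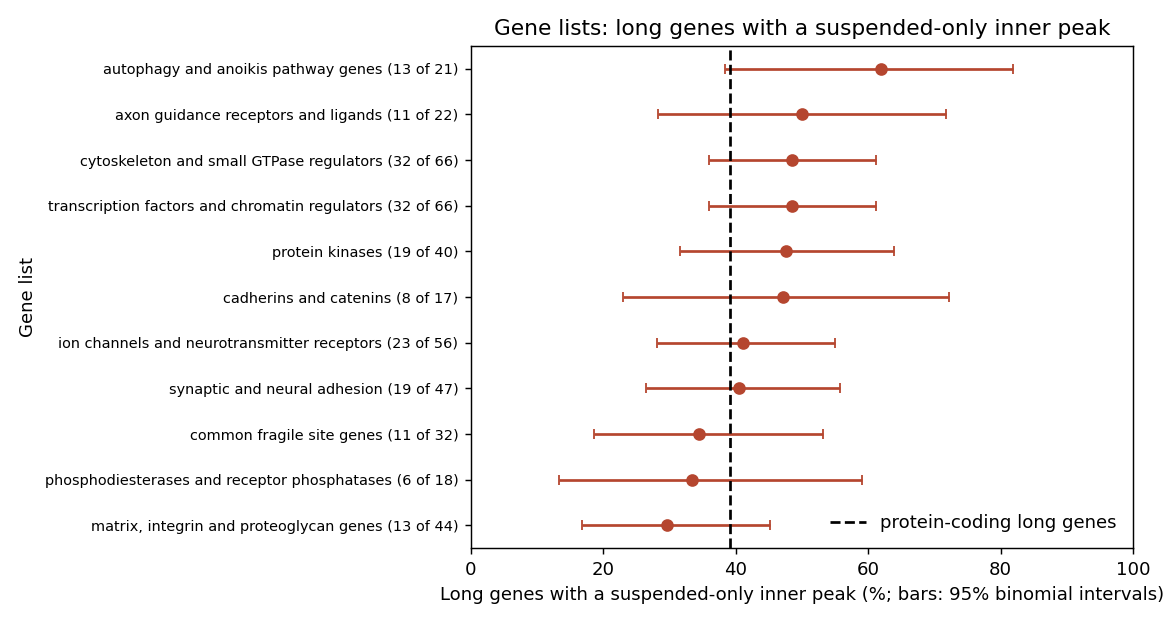
Share of each list's long genes with at least 1 long-gene peak (%, points with 95% exact binomial intervals), with the counts beside each name and a dashed line at the 39.1% of protein-coding long genes. Point estimates run from 29.5% for matrix genes to 61.9% for autophagy and anoikis genes, and every interval includes the line.

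The peaks nearest to each limit of the rule were as follows. The longest peak inside the limit, in PRIM2, was 738 bp with 44 tags at a fold of 4.84, and the shortest outside, in TRIO, was 759 bp with 65 tags at 4.02. By distance from a gene end, a STAU2 peak at 1045 bp with 36 tags was just inside, and a WWTR1 peak at 991 bp with 26 tags just outside. By span, NR2F2-AS1 at 200002 bp held a peak of 11 tags, and ASAP2 at 198867 bp, just too short, held one of 16. TRIO thus carried further suspended peaks that were too long for the rule.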

How the data were processed

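The authors ran MACS 1.4.2 on 1 ChIP library at a time with the matching input as control, a p cutoff of 1e-05 and 1 tag kept per position, per the file headers. The build is hg38 according to the submitters' processing notes. The aligner was not given in the sources used here. The deposited lists give tags per peak as a count (not normalized), fold as the authors' ratio to the local background, and the authors' FDR as a percent. The deposited score was read as minus 10 times log10 of the p-value from its column's place and lowest value of 50, because its column name is a spreadsheet error. The tag size was 50 bp and the fragment length modelled by MACS 63 bp in the suspended library, per the file headers.

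Spans of 59679 genes came from a RefSeq table of GRCh38.p14, without exons or strand, so peaks could not be sorted into exons, introns or UTRs. Starts and strands came from RefSeq promoter windows (250 bases before to 50 after a start), which matched 1159 of the 1399 protein-coding long genes. No genome sequence was used, and the planned search for GGAA in all peaks was run on promoter windows only. Overlap meant at least 1 bp. Intervals are 95% exact binomial (Clopper-Pearson), exact Poisson, or, for ratios of densities, from the binomial split of the counts. The rule for named genes took the 12 peaks of highest fold with ties, the 10 genes with most peaks (ties by summed tags), up to 4 genes per list by fold, and the peaks nearest each threshold. Some genes picked by this rule are not reported here. The peaks, lists and tests were chosen with earlier results of these data known. The 6 main values were recomputed under 8 alternatives. The classification of peaks was tested on simulated data. Python 3.11.15, numpy 2.4.6, pandas 2.3.3, SciPy 1.17.1 and matplotlib 3.10.9 were used.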

Additional observations from a re-analysis of the deposited data

How the results depend on the processing

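The 6 values tried were the number of long-gene peaks, the share of long genes with one, peaks per Mb, the ratio of density to shorter genes, median fold, and the share of peaks within 10 kb of an end of their host. Of 48 values under 8 alternatives, 25 stayed within the counting interval or within 1.5 times the count, and 23 moved. Density stayed below that of shorter genes under all 8. At an FDR of at most 5%, 28.7% of long genes had a peak, with 1.04 per Mb and a median fold of 11.7. In the upper scores of the list there were 386 peaks, in 17.4% of long genes, 0.563 per Mb, a ratio of 0.424 and a fold of 12.02. With a span of 100 kb or more there were 1794 peaks, in 29.0% of genes, 1.78 per Mb, a ratio of 0.505, a fold of 10.5 and 12.1% within 10 kb of an end. With 300 kb or more there were 639 peaks, in 40.9% of genes, 1.28 per Mb. With protein-coding hosts only, the share was 39.1%, with 1.55 per Mb and a ratio of 0.426. With summits over 5 kb from every gene end, the share was 32.8%, the ratio 0.517, and 2.67% (1.70 to 3.99) lay within 10 kb of an end, on 2.46% of the interior, so the excess in the main values (6.47% on 4.45%) was lost. These alternatives use fewer or other peaks and genes by construction. Leaving out peaks within 1 kb of an attached peak, or the most crowded windows, moved none of the 6.

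No paired analysis was possible because each group had 1 library. Most long-gene peaks rest on few tags: 8 tags have a 95% Poisson interval of 3.45 to 15.8, so single peaks are uncertain. The lowest tag count in the suspended list was 8.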
